A study of Bos taurus with 6 samples.

Results

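The collagens and the enzymes that modify them were taken from arrays of bovine granulosa cells (GC), the somatic cells that line the ovarian follicle. Members were the transcript clusters, the array's units for a gene, whose gene symbol has the form of a collagen chain (COL, a number, A and a number) or is P4HA1, P4HA2, P4HA3, PLOD1, PLOD2, PLOD3, LEPRE1, LEPREL1, PCOLCE or PCOLCE2. There were 51 of them among the 26773 transcript clusters of the table, with 49 symbols. Fibrillar collagens had 12 transcript clusters, basement membrane collagens (types IV, XV and XVIII) 9, other collagens 20 and the enzymes and enhancers 10. COL5A1 and COL4A4 had 2 transcript clusters each. A transcript cluster that carries the symbol of COL16A1 beside another symbol was not a member.

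The study asked how plating density changes gene expression in cultured GC. Primary bovine GC, pooled from many small to medium follicles, were kept for 9 days without serum in α-MEM with FSH, IGF-1 and androstenedione, either at normal density or at high density, for which the methods give 10 times as many cells per well. The wells of both groups had been coated with collagen protein before plating. For each density 3 cultures were measured on Bovine Gene 1.0 ST arrays, 1 array per culture, and the labels do not say whether cultures with the same replicate number shared a cell pool. The p-values therefore measure the spread between these cultures, which may in part be technical.

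Collagens are the main structural proteins of the extracellular matrix, built of chains that wind into a triple helix. Fibrillar collagens form the cables of connective tissue, type IV collagen forms the network of basement membranes, and types XV and XVIII lie at the border of basement membranes and the tissue around them. In the follicle, GC rest on a basal lamina that holds type IV collagen, and this lamina is broken down around ovulation. Newly made chains are hydroxylated on proline and lysine in the endoplasmic reticulum (ER), which stabilizes the helix and prepares the lysine cross-links that are formed later outside the cell.

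All values are log2 signals, and a log2 difference is the mean at high density minus the mean at normal density. A transcript cluster is termed called when its fold change (FC) was above 1.5 in size with a p-value and a false discovery rate (FDR) below 0.05. The FDR is the Benjamini-Hochberg adjusted p of limma over all transcript clusters, and SE is the standard error of a log2 difference. A background level of 4.62 was set at the 95th percentile of the 82 reporter control rows of the array. Medians of the 6 arrays lay between 4.34 and 4.43. Signals are adjusted so that all arrays have a like distribution, so a difference is relative to the other transcripts of the culture, and fewer cells of a type and less RNA per cell cannot be told apart.

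All 9 GC markers of the list (FSHR, CYP19A1, INHA, INHBA, AMH, FOXL2, NR5A1, CYP11A1 and HSD3B1) were above the background level in at least 1 density. Of these 9, 5 were called down at high density, against 3.51% of all transcript clusters. They were FSHR, CYP19A1, INHA, INHBA and FOXL2. CYP11A1 went the other way, with a log2 difference of 0.26 (adjusted p = 0.0294) that passed the FDR threshold only. HSD3B1, with −0.28 (adjusted p = 0.0234), also passed the FDR threshold only. NR5A1 and AMH, with −0.28 and −0.18, did not pass it. Leukocyte markers were below the background level in both densities for 7 of 7 genes, and so were 7 of 8 endothelial markers, with VWF as the exception. Of the 5 theca markers INSL3, NR2F2 and PTCH1 were above the background level in both densities, and CYP17A1 and LHCGR were below it in both. Also above it in at least 1 density were 5 of 8 fibroblast and stroma markers and 4 of 6 smooth muscle and pericyte markers. The same held for 2 of 5 surface epithelium markers, CDH1 and MSLN, and 0 of these 5 were called. High density replicate 2 was often the lowest culture of its density among transcript clusters that rose, so the main count is also given without it.

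At high density 9 of the 51 members, 17.6%, were called up and 1, COL21A1, was called down. Of all transcript clusters 7.49% were called, 3.97% up and 3.51% down. Without high density replicate 2, 10 members were called up and 1 down. The FDR threshold alone, at any size of the difference, was passed by 19 members that rose, 37.3%, and 2 that fell, 3.92%, where all transcript clusters gave 8.64% and 10.4%, together 19.1%. The 3 cultures of one density lay wholly above those of the other for 28 members, 54.9%, against 37.3% of all transcript clusters. High density was the higher one in 22 of the 51 members, 43.1%, against 17.8% of all transcript clusters. It was the lower one in 6 of the 51, against 19.5%. The median log2 difference was 0.18 over the members and 0.02 over the whole table.

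In 20 members, all of them collagens, both density means were at or below the background level. None of these was called, and their log2 differences lay between −0.32 and 0.54. In the other 31 at least 1 density mean was above it, which for COL15A1, COL18A1 and COL6A3 was the high density mean alone. Where all 3 cultures of the lower density were at or below the background level, a called change is given as a bound, with that level put in place of the lower signals.

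**Figure D1:**
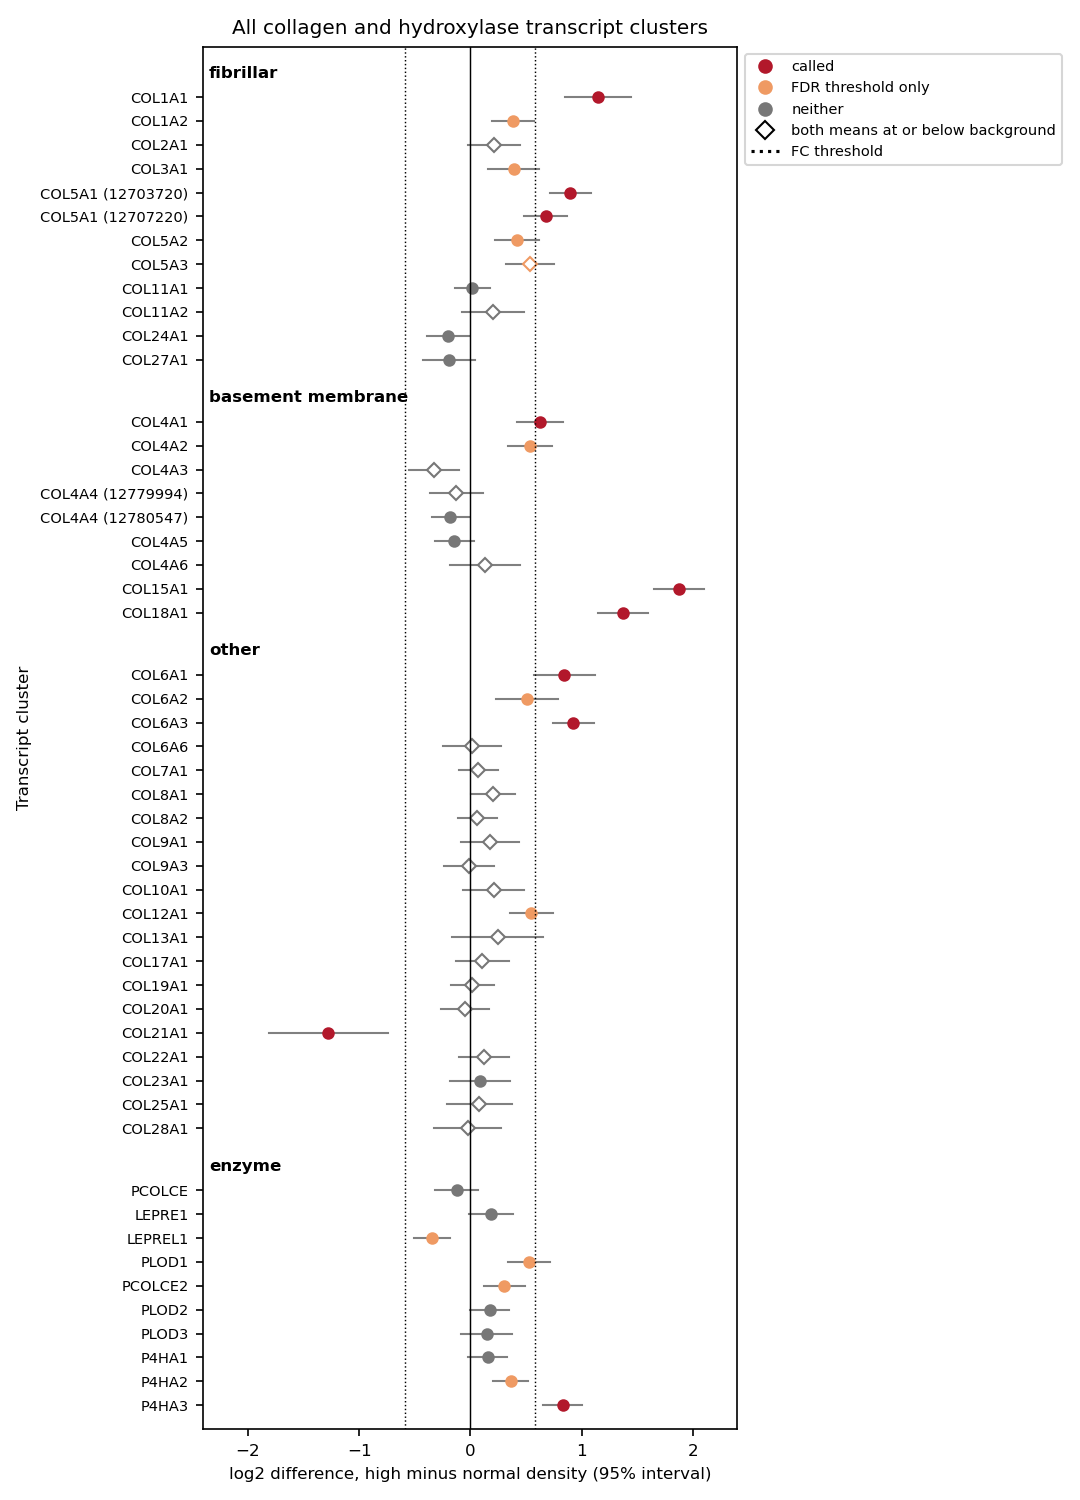
Log2 difference of each collagen and hydroxylase transcript cluster, high minus normal density (horizontal axis), with limma's 95% interval (bars), by class. Red points are called, orange points passed the FDR threshold only and grey points neither, open diamonds have both means at or below the background level, and dotted lines mark an FC of 1.5 in either direction. COL15A1 has the highest difference, 1.87, and COL21A1 is alone at the left with −1.28.

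Among the fibrillar collagens, COL1A1 and COL5A1 were up-regulated at high density, and their partner chains COL1A2 and COL5A2 passed the FDR threshold only. Of the 12 transcript clusters 3 were called up, 25%, and 0 down, against 3.97% and 3.51% of all transcript clusters. Another 4 passed the FDR threshold with an FC under 1.5, all of them higher at high density, so 7 of 12, 58.3%, rose by the FDR alone, against 8.64% of all transcript clusters. The median log2 difference of the class was 0.39.

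COL1A1 (transcript cluster 12760992) encodes the α1 chain of type I collagen, the main collagen of most connective tissues. Its signals were 6.64, 6.56 and 6.23 in the normal density cultures and 7.73, 7.47 and 7.67 in the high density cultures. The groups did not overlap, and the spread within each density was far smaller than the distance between them. The log2 difference was 1.15 (SE 0.13, adjusted p = 9.04e-04), an FC of 2.21.

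COL1A2 (12848984), the α2 chain of the same molecule, had signals of 6.49, 6.49 and 6.62 at normal density and 6.94, 6.81 and 7.0 at high density. The groups were separate here too, at a smaller distance. The log2 difference of 0.38 (SE 0.08, adjusted p = 0.0165) passed the FDR threshold but not the FC threshold.

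COL5A1, the α1 chain of type V collagen, which lies within type I fibrils and limits their width, is represented by both 12703720 and 12707220. In the former the normal density signals were 5.72, 5.63 and 5.50 and the high density signals 6.56, 6.49 and 6.49, a log2 difference of 0.90 (SE 0.08, adjusted p = 3.77e-04). In the latter they were 9.17, 9.16 and 9.07 against 9.91, 9.69 and 9.83, a log2 difference of 0.68 (SE 0.08, adjusted p = 0.00137). Both called COL5A1 up, and neither had groups that overlapped.

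The other chains of type V collagen passed the FDR threshold only. COL5A2 (12778378) had signals between 6.57 and 6.77 at normal and between 7.02 and 7.19 at high density, a log2 difference of 0.42 (SE 0.08, adjusted p = 0.0130). COL5A3 (12884190) changed by 0.54 (SE 0.09, adjusted p = 0.00630), but its means of 3.72 and 4.26 were both below the background level.

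COL3A1 (12781192), the chain of type III collagen, which accompanies type I in soft tissues, had signals of 7.95, 8.03 and 7.72 at normal density and 8.35, 8.23 and 8.28 at high density. High density cultures were all above the normal density cultures, and the log2 difference of 0.39 (SE 0.10, adjusted p = 0.0302) passed the FDR threshold. The 5 remaining fibrillar transcript clusters, of COL2A1, COL11A1, COL11A2, COL24A1 and COL27A1, did not pass it, with log2 differences between −0.20 and 0.21. COL2A1 and COL11A2, chains of cartilage collagens, were below the background level in both densities. COL11A1 (12836122), above that level at 5.29 ± 0.05 and 5.30 ± 0.04 (SD, n = 3), differed by 0.02 with a 95% interval from −0.14 to 0.17.

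**Figure D2:**
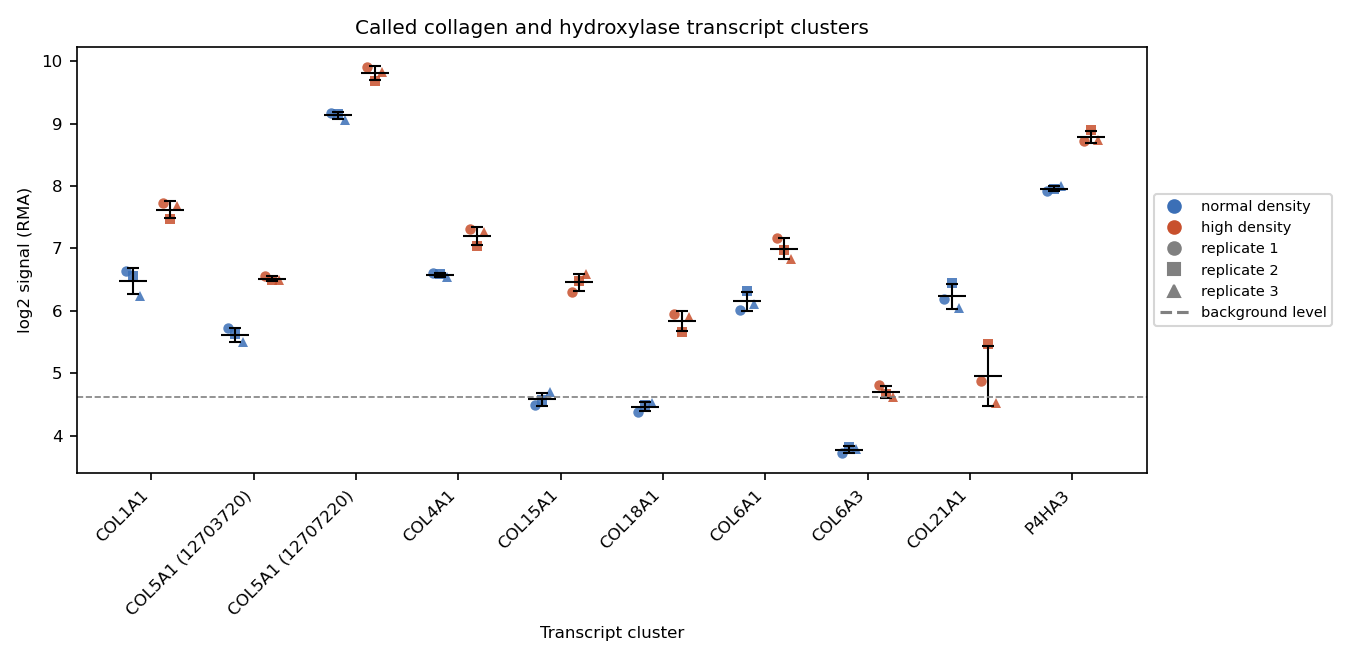
Log2 signal of the 10 called transcript clusters in each culture (vertical axis), with normal density in blue and high density in red. Symbols mark the replicate number, black marks are means with SD (n = 3), and the dashed line is the background level of 4.62. Densities do not overlap in any of the 10, which were shown because they were called, so this adds nothing to the calls. COL15A1, COL18A1 and COL6A3 have normal density means below the dashed line.

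Basement membrane collagens gave the largest rises of all members, in COL15A1 and COL18A1, and a smaller one in COL4A1. Of their 9 transcript clusters 3 were called up, 33.3%, against 3.97% of all transcript clusters, and 0 down. The groups of 7 did not overlap, 4 with high density above and 3 with high density below normal density, 77.8% in all against 37.3% of all transcript clusters (17.8% above and 19.5% below).

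COL15A1 (12888697), the chain of type XV collagen, a proteoglycan that ties basement membranes to nearby fibrils, had signals of 4.49, 4.56 and 4.69 at normal density and 6.30, 6.48 and 6.58 at high density. All high density cultures were far above the normal density cultures, whose mean of 4.58 was just below the background level. The log2 difference was 1.87 (SE 0.10, adjusted p = 3.80e-05), an FC of 3.67. Leaving out 1 culture at a time gave log2 differences from 1.81 to 1.95.

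COL18A1 (12679430) encodes type XVIII collagen, the closest relative of type XV and the source of the fragment endostatin. Its signals were 4.38, 4.49 and 4.52 at normal density and 5.96, 5.65 and 5.90 at high density. The groups were clearly apart, and high density replicate 2 was the lowest of its density. The log2 difference was 1.37 (SE 0.10, adjusted p = 1.39e-04). All its normal density cultures were below the background level, so the signal at high density was at least 2.32-fold higher. For COL15A1 this held for 2 of the 3 normal density cultures.

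COL4A1 (12711158) and COL4A2 (12709330) encode the α1 and α2 chains, which form the type IV network found in nearly all basement membranes. COL4A1 had signals of 6.60, 6.59 and 6.54 at normal density and 7.31, 7.03 and 7.27 at high density, a log2 difference of 0.63 (SE 0.09, adjusted p = 0.00289). COL4A2 had signals of 6.10, 6.01 and 5.89 against 6.62, 6.49 and 6.49, a log2 difference of 0.54 (SE 0.08, adjusted p = 0.00428). Only COL4A1 passed the FC threshold, with an FC of 1.54 against 1.45 for COL4A2. The call of COL4A1 was lost without high density replicate 1 and when each array was shifted to the same median, with log2 differences of 0.58 in both cases.

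The chains of the more specialized type IV networks did not rise with COL4A1 and COL4A2. COL4A3 (12774697) had signals of 4.30, 4.15 and 4.04 at normal density and 3.71, 3.86 and 3.94 at high density, all below the background level, with a log2 difference of −0.32 (SE 0.10, adjusted p = 0.0565). The transcript cluster of COL4A4 above the background level (12780547) had a log2 difference of −0.18 (95% interval −0.34 to −0.01, adjusted p = 0.129), and the other (12779994), below it, −0.13. COL4A5 (12903732) differed by −0.14 (95% interval −0.32 to 0.03, adjusted p = 0.244) and COL4A6, below the background level, by 0.13. None of these 5 transcript clusters passed the FDR threshold.

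In the RefSeq gene table of the bovine assembly ARS-UCD2.0, COL4A1 and COL4A2 are neighbours on chromosome 12, COL4A4 and COL4A3 on chromosome 2, and COL4A6 and COL4A5 on chromosome X. The neighbours COL4A1 and COL4A2 both rose by the FDR threshold. COL4A3 and COL4A4 had lower means at high density in each of their transcript clusters, but none of these passed it. The neighbours COL4A6 and COL4A5 differed in opposite directions, by 0.13 and −0.14, and did not pass it either. Other neighbours among the members were COL6A1 and COL6A2 on chromosome 1, COL5A2 and COL3A1 on chromosome 2 and COL19A1 and COL9A1 on chromosome 9. COL6A1, COL6A2, COL5A2 and COL3A1 all rose by the FDR threshold, and COL19A1 and COL9A1 did not pass it. All 51 members were found in that table, 27 by accession and 24 by symbol. The build behind the array's annotation was not given in the sources used here, so no coordinates are shown.

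Of the other collagens, 3 of 4 chains of type VI rose by the FDR threshold and COL21A1 fell, while most of the rest were at or below the background level. Type VI collagen forms beaded filaments close to cells. Of the 20 transcript clusters 2 were called up, 10%, and 1 down, 5%, against 3.97% and 3.51% of all transcript clusters. In 14 of the 20 both means were at or below the background level.

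COL6A1 (12679824) had signals of 6.02, 6.32 and 6.12 at normal density and 7.17, 6.98 and 6.84 at high density, without overlap. The log2 difference was 0.85 (SE 0.12, adjusted p = 0.00242), an FC of 1.80. COL6A3 (12845908) rose from 3.71, 3.82 and 3.79 to 4.81, 4.66 and 4.62, a log2 difference of 0.92 (SE 0.08, adjusted p = 3.02e-04), but all normal density cultures were below the background level, against which high density was at least 1.05-fold higher. COL6A2 (12678773) had signals of 6.24, 6.49 and 6.40 against 7.08, 6.67 and 6.91, with a log2 difference of 0.51 (SE 0.12, adjusted p = 0.0233) that passed the FDR threshold only. COL6A6 was at 2.76 and 2.78, below the background level, and differed by 0.01.

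COL21A1 (12802836) belongs to the FACIT collagens, which attach to the surface of fibrils. Its signals were 6.19, 6.45 and 6.05 at normal density and 4.88, 5.46 and 4.52 at high density. The high density cultures were all lower but spread widely, with an SD of 0.47 against 0.20, and replicate 2 was the highest of them. The log2 difference was −1.28 (SE 0.23, adjusted p = 0.00803). Leaving out 1 culture at a time gave −1.53 to −1.06. With the methods' analysis of variance, which uses the spread of this transcript cluster alone, the adjusted p was 0.0748, and COL21A1 was then not called. With the replicate number as a block in limma's fit it was called (SE 0.12, adjusted p = 0.00232). The labels do not say whether such a pairing applies.

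COL12A1 (12899625), another FACIT chain, moved the other way. Its signals were 7.92, 7.84 and 7.93 at normal density and 8.35, 8.4 and 8.57 at high density, a log2 difference of 0.55 (SE 0.08, adjusted p = 0.00380). With an FC of 1.46 it was the nearest of all members to the FC threshold from below, next to COL5A3 and COL4A2, while COL4A1 was the nearest above it. The 5 remaining FACIT transcript clusters, of COL9A1, COL9A3, COL19A1, COL20A1 and COL22A1, were below the background level in both densities and did not pass the FDR threshold.

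None of the 3 short chain collagens (COL8A1, COL8A2 and COL10A1), the 4 transmembrane collagens (COL13A1, COL17A1, COL23A1 and COL25A1), COL7A1 of the anchoring fibrils or COL28A1 passed the FDR threshold. Their log2 differences were between −0.02 and 0.25. Only COL23A1 was above the background level, at 4.66 ± 0.04 and 4.74 ± 0.22 (SD, n = 3), with a 95% interval of the difference from −0.18 to 0.35.

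Whether chains that are assembled into the same molecule changed to the same extent was tested for chosen pairs of types I, IV, V, VI, VIII and XI. Other pairs with a transcript cluster each, such as COL4A3 and COL4A4, were not tested. For each pair the log2 ratio of the chains was taken within each culture and compared between densities with a two-sided exact permutation test, whose smallest p with 3 cultures against 3 is 0.1. A ratio shows unequal change in signal only and not which chain had more RNA. The 2 transcript clusters of COL5A1 themselves gave log2 differences of 0.90 and 0.68, so unequal change in signal need not mean unequal change in RNA. In all, 8 pairs of transcript clusters were compared, and none could pass a threshold of 0.05 at this number of cultures.

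The log2 ratio of COL1A1 to COL1A2 was 0.15, 0.07 and −0.39 in the normal density cultures and 0.80, 0.66 and 0.67 in the high density cultures. All high density cultures were above all normal density cultures, and the ratio differed by 0.76 between densities (SE 0.17, exact permutation p = 0.1, adjusted p = 0.2 over the 8 pairs). The ratio of COL5A1 to COL5A2 differed by 0.48 (SE 0.05) for transcript cluster 12703720 and by 0.26 (SE 0.07) for 12707220, again without overlap (exact permutation p = 0.1 for each, adjusted p = 0.2). The ratio of COL6A1 to COL6A2 differed by 0.34 (SE 0.11, exact permutation p = 0.1, adjusted p = 0.2), also without overlap.

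For COL4A1 and COL4A2 the ratio overlapped between densities and differed by 0.09 (SE 0.08, exact permutation p = 0.4, adjusted p = 0.457). COL6A1 to COL6A3 differed by −0.08 (SE 0.08, exact permutation p = 0.5), with COL6A3 below the background level at normal density. The pairs of type VIII and type XI chains, in which at least 1 chain was below the background level, differed by 0.14 and −0.18 and overlapped.

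**Figure D3:**
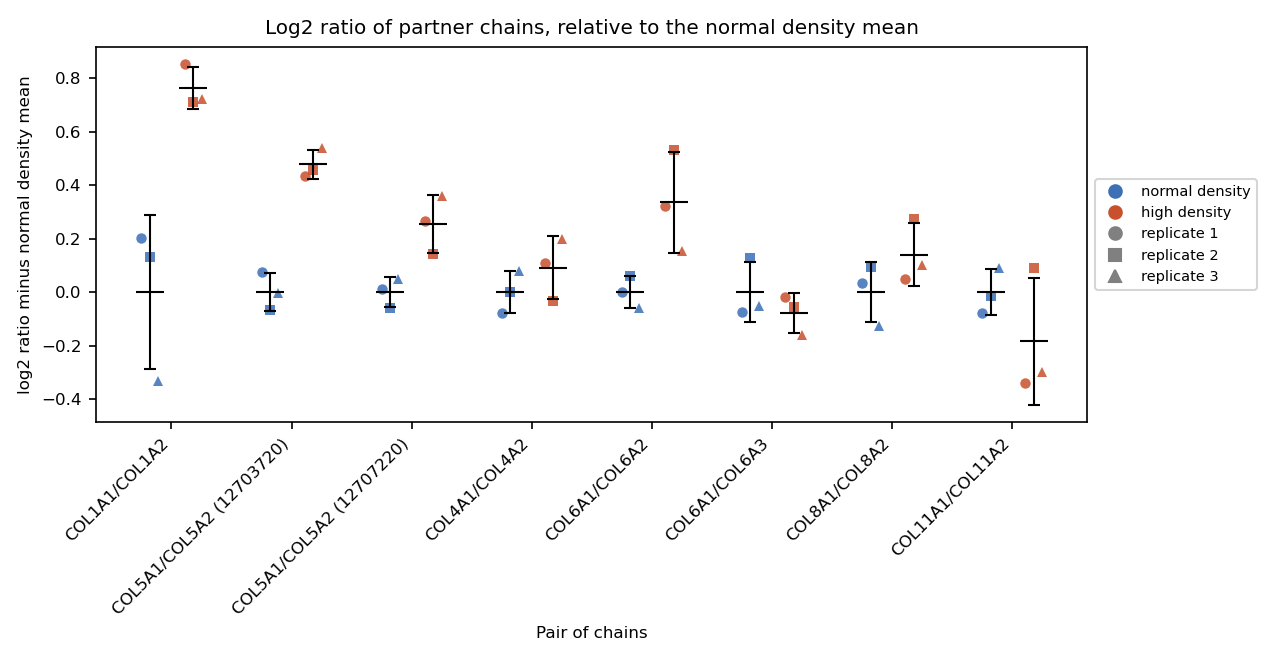
Log2 ratio of partner chains in each culture minus the mean ratio at normal density (vertical axis), with normal density in blue and high density in red. Symbols mark the replicate number and black marks are means with SD (n = 3). The ratios of COL1A1 to COL1A2, COL5A1 to COL5A2 and COL6A1 to COL6A2 are higher in all high density cultures, while those of COL4A1 to COL4A2 and COL6A1 to COL6A3 overlap.

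Among the enzymes, P4HA3 was the only one called, and it rose. This is 1 of 10, 10%, against 3.97% of all transcript clusters called up. At this number 1 call is near that share. All 10 were above the background level in both densities. Among all 26773 transcript clusters, 13696 were at or below it in both, and the shares of all transcript clusters include these. Of the 10, 4 rose and 1 fell by the FDR threshold alone, 40% and 10%, against 8.64% and 10.4% of all transcript clusters, and the median log2 difference was 0.18.

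The P4HA genes encode the catalytic subunits of prolyl 4-hydroxylase, whose product hydroxyproline keeps the collagen helix stable at body temperature. P4HA3 (12731077) had signals of 7.92, 7.96 and 8.0 at normal density and 8.73, 8.90 and 8.73 at high density, a log2 difference of 0.83 (SE 0.08, adjusted p = 4.29e-04). P4HA2 (12878068) had 8.64, 8.72 and 8.65 against 9.02, 9.08 and 8.99, a log2 difference of 0.36 (SE 0.07, adjusted p = 0.00906) that passed the FDR threshold only. For P4HA1 (12828142), with 9.45, 9.42 and 9.42 against 9.55, 9.69 and 9.51, the groups were apart, but the difference of 0.15 (95% interval −0.02 to 0.33, adjusted p = 0.200) did not pass.

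The PLOD genes encode lysyl hydroxylases, which act on the lysines used for cross-links and for the attachment of sugars. PLOD1 (12738517), which acts mainly on the helical part of the chains, had signals of 9.60, 9.69 and 9.47 at normal density and 10.17, 10.09 and 10.08 at high density, a log2 difference of 0.53 (SE 0.08, adjusted p = 0.00398). PLOD2 (12681397), the enzyme of the telopeptides at the chain ends, differed by 0.17 (SE 0.07, adjusted p = 0.160) with means of 10.75 ± 0.04 and 10.92 ± 0.09 (SD, n = 3). PLOD3 (12812571), which also transfers sugars, differed by 0.15 (95% interval −0.08 to 0.37, adjusted p = 0.353). Of the lysyl hydroxylases PLOD1 alone thus passed the FDR threshold.

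LEPREL1 (12679954), prolyl 3-hydroxylase 2, which is known to act on type IV collagen, was the only enzyme that fell by the FDR threshold. Its signals were 9.03, 8.97 and 8.99 at normal density and 8.74, 8.60 and 8.62 at high density, a log2 difference of −0.34 (SE 0.07, adjusted p = 0.0137). LEPRE1 (12840769), prolyl 3-hydroxylase 1, differed by 0.19 (95% interval −0.01 to 0.38, adjusted p = 0.173), and its groups overlapped.

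PCOLCE and PCOLCE2 are secreted proteins that enhance the removal of the C-terminal propeptide of procollagen. PCOLCE2 (12680200) rose from 7.84, 7.99 and 7.94 to 8.21, 8.16 and 8.31, a log2 difference of 0.30 (SE 0.08, adjusted p = 0.0346) below the FC threshold. PCOLCE (12815388) did not pass, with a log2 difference of −0.12 (95% interval −0.32 to 0.07, adjusted p = 0.349).

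**Figure D4:**
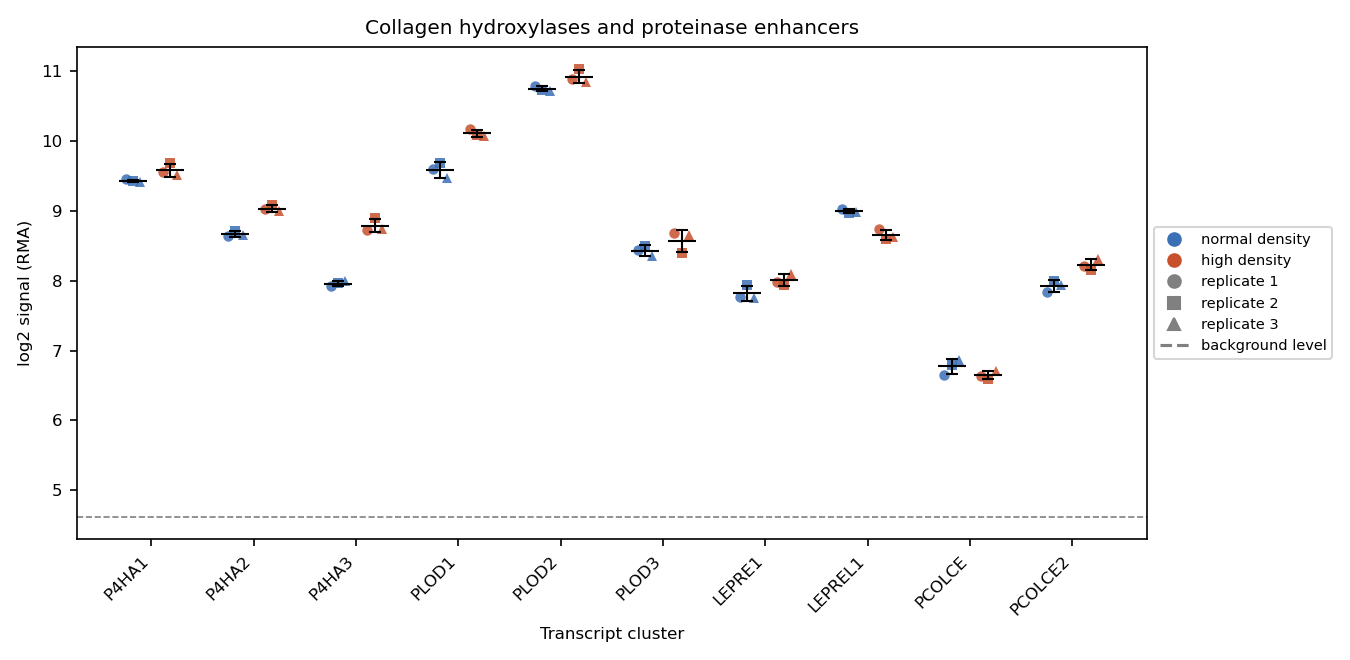
Log2 signal of the 10 enzymes and enhancers in each culture (vertical axis), with normal density in blue and high density in red. Symbols mark the replicate number, black marks are means with SD (n = 3), and the dashed line is the background level of 4.62. P4HA3, with means of 7.96 and 8.79, has the widest gap, and LEPREL1 is lower at high density.

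The cultures at high density also differed among each other. Of the 15 collagen transcript clusters that rose by the FDR threshold, replicate 1 was the highest high density culture in 12, replicate 3 in 3 and replicate 2 in 0, and replicate 2 was the lowest in 9. Over the 2314 transcript clusters of the table that rose by the FDR threshold, replicate 1 was the highest in 925 and replicate 2 in 731, and replicate 2 was the lowest in 1120, 48.4%. Among the 4 enzymes that rose, replicate 2 was the highest in 2 and the lowest in 1. These shares are descriptions, since the transcript clusters of a culture share its array.

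Other genes of collagen making, cross-linking and binding were taken from a list of 44 symbols, 41 of which had a transcript cluster. Of the 41, 11 were called up, 26.8%, and 0 down, against 3.97% and 3.51% of all transcript clusters. The calls lay mostly in cross-linking, in the receptors and among the proteinases. Of 19 genes for folding in the ER and for export 1 was called, which at this number is near the share of all transcript clusters.

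Of the lysyl oxidases, which start the cross-links between collagen chains from lysines, 4 of 5 were called up. The log2 difference was 4.30 for LOXL2 (SE 0.12), 2.68 for LOX (SE 0.11), 2.15 for LOXL4 (SE 0.08) and 0.77 for LOXL1 (SE 0.08, adjusted p = 6.05e-04). All normal density cultures were below the background level for LOX and LOXL4, whose signals at high density were at least 2.60-fold and 2.36-fold higher. LOXL3, at 7.25 ± 0.07 and 7.37 ± 0.16 (SD, n = 3), differed by 0.12 and was not called.

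Of the 7 genes with a transcript cluster in the list of procollagen proteinases and their relatives, 2 were called up. ADAMTS14, which removes N-terminal propeptides, had means of 4.62 ± 0.17, at the background level, and 5.70 ± 0.11 (SD, n = 3) and a log2 difference of 1.08 (SE 0.11, adjusted p = 5.71e-04). TLL2, a relative of the C-proteinase BMP1, had a log2 difference of 0.92 (SE 0.11, adjusted p = 0.00148), while BMP1 itself differed by −0.18 and was not called.

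Of the 10 receptors and uptake proteins 4 were called up and 0 down. The integrin chain gene ITGA1 rose by 1.56 (SE 0.14, adjusted p = 3.34e-04), ITGA2 by 0.72 and the collagen receptor kinase DDR2 by 0.76 (SE 0.12, adjusted p = 0.00384). All normal density cultures were below the background level for ITGA1, against which high density was at least 1.24-fold higher. ITGA11 was also called up, with both means, 3.10 and 4.10, below that level. The related kinase DDR1 fell by 0.53 on the log2 scale (adjusted p = 0.0158), which passed the FDR threshold only. ITGB1, the common partner of these integrin chains, differed by −0.08 and was not called.

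In the ER, the gene called was GLT25D2, a collagen galactosyltransferase, with means of 4.54 ± 0.15 and 5.93 ± 0.14 (SD, n = 3) and a log2 difference of 1.39 (SE 0.11, adjusted p = 1.91e-04). Its normal density mean was below the background level, as were 2 of the 3 cultures. SERPINH1, the collagen chaperone HSP47, differed by 0.10 (adjusted p = 0.405) from a normal density mean of 9.85, and P4HB, the subunit shared by the prolyl 4-hydroxylases, by 0.23 (adjusted p = 0.0527). None of the 9 export genes passed the FDR threshold, with log2 differences between −0.23 and 0.20.

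**Figure D5:**
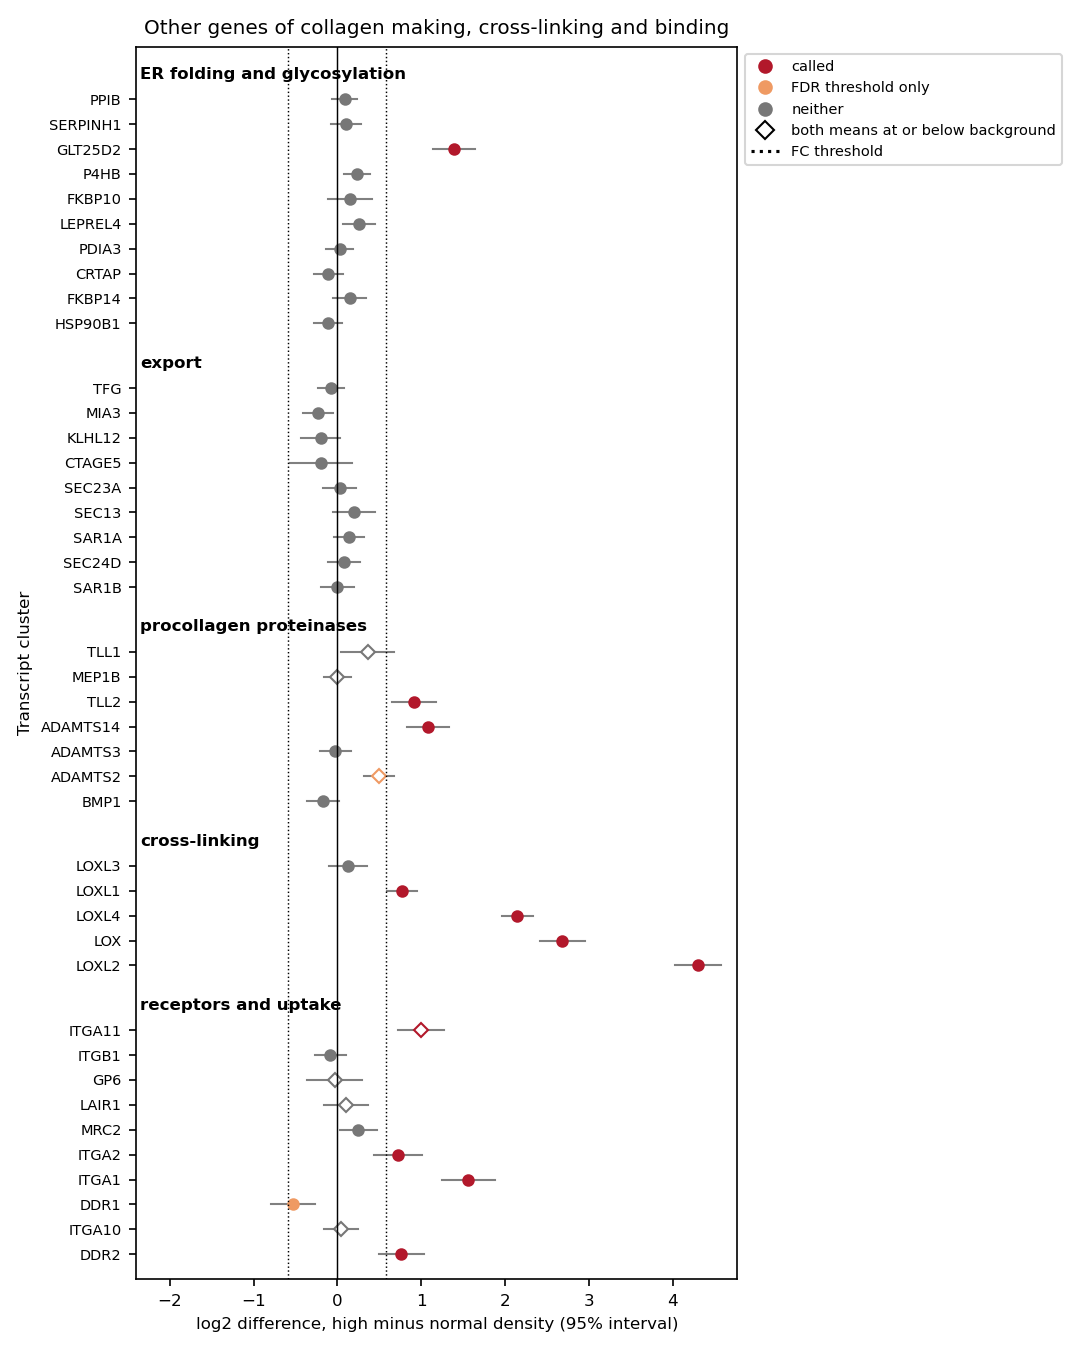
Log2 difference of 41 other genes of collagen making, cross-linking and binding, high minus normal density (horizontal axis), with limma's 95% interval (bars), by group. Red points are called, orange points passed the FDR threshold only and grey points neither, open diamonds have both means at or below the background level, and dotted lines mark an FC of 1.5 in either direction. The lysyl oxidases reach 4.30 in LOXL2, while the export genes stay between −0.23 and 0.20.

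Collagens are also made by fibroblasts, pericytes and theca cells, and some markers of these cells moved with density. The methods state that aspiration can give nearly pure GC, free of theca cells. Of 8 fibroblast and stroma markers 3 were called up, 37.5% against 3.97% of all transcript clusters, THY1 with a log2 difference of 1.71 (SE 0.10), PDGFRB with 0.94 (SE 0.10) and S100A4, the last with both means below the background level. PDGFRA differed by 0.32 (adjusted p = 0.0236), which passed the FDR threshold only. DCN and LUM, proteoglycans that bind collagen fibrils, differed by 0.17 and 0.01 from normal density means of 10.68 and 11.64, and neither was called, while FAP and TCF21 were below the background level in all cultures. The log2 of the summed signals of the list was between 12.30 and 12.35 at normal density and between 12.43 and 12.47 at high density. Of 6 smooth muscle and pericyte markers 2 were called up, 33.3%, and 1 down, against 3.97% and 3.51% of all transcript clusters. ACTA2 and TAGLN rose, with log2 differences of 1.15 and 1.08, and MYH11 fell, with both means below the background level. DES, CNN1 and RGS5 differed by 0.50, 0.23 and 0.10 and did not pass the FDR threshold. The summed signal of this list moved from between 8.47 and 8.53 to between 9.30 and 9.47. Of 5 theca markers 1 was called up, 20%, and 1 down, against 3.97% and 3.51% of all transcript clusters. INSL3 rose, with 1.82, and LHCGR fell, below the background level in both densities. PTCH1 differed by 0.31 (adjusted p = 0.0284), passing the FDR threshold only, and NR2F2 by −0.07 and CYP17A1 by less than 0.01 did not pass. The summed signal of the theca list moved from between 8.28 and 8.44 to between 9.36 and 9.58. Such sums add signals before the log2 is taken, so the brightest genes weigh most. These were INSL3 for theca, LUM and DCN for fibroblasts and stroma, and ACTA2 and TAGLN for smooth muscle and pericytes. The summed signal of the 9 GC markers moved from between 12.72 and 12.82 to between 12.42 and 12.46. Several of these genes are also expressed by GC, and the part of such cells in the collagen changes was not tested.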

How the data were processed

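Per the labels and the methods, the authors measured total RNA of 6 GC cultures on Bovine Gene 1.0 ST arrays and processed the scans in Expression Console with the Robust Multichip Average (RMA) procedure, which corrects background, normalizes between arrays and summarizes probes. The deposited table holds log2 signals per transcript cluster. No further normalization was applied, and 0 columns belonged to other samples. Both densities were fitted without covariates by lmFit and eBayes of limma (version 3.58.1, R 4.3.3), and p-values were adjusted after Benjamini and Hochberg over 26773 transcript clusters. Calls used the FC, p and FDR limits given in the methods, whose analysis of variance was an alternative beside other variance models, scalings, filters, treat, a replicate block and leaving out each culture. Exact permutation tests used scipy 1.17.1 and figures matplotlib 3.10.9, in Python 3.11.15. Precision is limited by the number of arrays (3 per density) and by the background level. The scripts were tested on simulated data. The members, the classes, the gene lists and the tests were chosen with earlier results of these data known. Genes named are the called members, their partner chains, all enzymes, both COL5A1 transcript clusters, the 5 members of highest mean signal and up to 4 called genes per group of the pathway list. Other members and markers were named after their values were seen. Chains of the pattern without a transcript cluster of that single symbol were not analysed here.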

Additional observations from a re-analysis of the deposited data

How the results depend on the processing

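Counts of called transcript clusters kept within 1.5 times of those reported, for all 51 members and for each class, under the methods' analysis of variance, array weights, a filter on low signals, removal of the control rows, median centring, trended and robust variances and quantile normalization applied again. With limma's treat, a test against an FC of 1.5 in place of no change, 2 members (COL15A1 and COL18A1) were called, with 0 fibrillar, 0 other collagens and 0 enzymes, and 6 genes of the pathway list. With the FDR threshold alone, a setting added after the data were seen, 21 members passed, 7 of them fibrillar, 5 other collagens and 5 enzymes. With each culture left out in turn, between 10 and 12 members were called. Deviations from the density means correlated from −0.05 to 0.05 between same-numbered cultures and from −0.07 to 0.09 between the others. This cannot show whether same-numbered cultures shared a cell pool. With the replicate number as a block 10 members were called. Of 150 values of the 10 called transcript clusters under the alternatives, 139 kept their call, 11 lost it and 0 changed direction. The ratios of partner chains kept their direction in all 48 values with a culture left out. In 20 members both means were at or below the background level, where a difference could not be measured well.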
